A study of Mus musculus with 9 samples.

Results

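The genes described here encode 9 proteins of fatty acid oxidation in peroxisomes: Ehhadh, Acaa1a, Acaa1b, Abcd3, Decr2, Eci2, Pex11a, Hsd17b4 and Acox2. They were taken by name, with earlier results of these data known, and each was found on exactly 1 probe set with a single gene symbol, so 9 of 9 were measured among 22180 genes in all. Their RNA was measured in whole livers on Affymetrix whole-transcript arrays, with 1 array for each of 9 mice. The control group held 3 mice with floxed SMRT and NCoR alleles (SMRT and NCoR fl/fl) and no deletion, the SMRT KO group 3 mice whose livers lacked SMRT, and the double KO group 3 mice whose livers lacked both SMRT and NCoR. All mice were euthyroid females of mixed 129SV/B6 background, 7 to 9 weeks old and fed standard chow. Neither the driver of the liver deletion nor the state of the NCoR alleles in SMRT KO mice is stated in the sample labels. No group without NCoR alone is among the samples, so NCoR loss was compared only where SMRT was already absent, between double KO and SMRT KO livers. Values are RMA log2 expression values, on which a difference of 1 is a doubling. A gene was called when limma's test over all genes gave an adjusted p (Benjamini-Hochberg) below 0.05. Each fold change is given with its standard error (SE) or its 95% interval, which is not adjusted for the number of genes.

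SMRT and NCoR are corepressors that nuclear receptors, among them thyroid hormone receptors and PPAR alpha, use to hold target genes at a low level. Peroxisomes shorten very long, branched and dicarboxylic fatty acids and bile acid precursors by rounds of oxidation, hydration, dehydrogenation and thiolytic cleavage, and hand the shortened chains on to mitochondria. In rodent liver this pathway is a textbook target of PPAR alpha, whose ligands enlarge the peroxisome population and induce several of its enzymes.

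The arrays were alike as a whole. Arrays of 1 group correlated over all probe sets at 0.987 to 0.992, arrays of different groups at 0.983 to 0.989, and the array medians lay between 5.96 and 6.02. The defining hepatocyte markers were present, and all 10 had means above the highest 95th percentile of olfactory and vomeronasal receptor genes on any array (6.22), a level that stands here for background. All 9 peroxisomal genes also lay above that level in each group. The probe annotation used here has no single-symbol probe set for either corepressor gene, so the deletions were not checked. In SMRT KO replicate 3, 6 of the 9 peroxisomal genes had their lowest value of the 9 arrays, although only 13.0% of all genes did, so the fold changes of the 9 genes in comparisons with SMRT KO livers are given with and without it.

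In double KO livers 2 of the 9 genes rose against control, Ehhadh and Acaa1b, and 0 fell. In the same comparison 0.843% of all genes were called in either direction and 0.523% were called higher. Against SMRT KO livers 3 of the 9 rose, Ehhadh, Acaa1b and Abcd3, and 0 fell, where 1.19% of all genes were called and 0.748% were called higher. In SMRT KO against control livers 0 of the 9 genes were called by limma, where 0.00451% of all genes were, and 1 of the 9, Acaa1a, had an unadjusted p under 0.05 and was lower, where 1331 of 22180 genes had such a p and 3.34% of all genes had it and were lower. An unadjusted p under 0.05 was found for 4 of the 9 in double KO against control, where 10.8% of all genes had one. In double KO against SMRT KO 6 of the 9 had one, where 10.5% of all genes did. Those of the 9 were all higher in double KO livers. Of 22180 genes, 1184 and 1256 had such a p and were higher in these comparisons. The 3 double KO values lay wholly above the 3 control values for 8 of the 9 genes, Eci2 being the exception. These groups did not overlap in either direction for 15.0% of all genes, and 1714 of 22180 were wholly higher in double KO livers. The 3 double KO values lay above all 3 SMRT KO values for 5 of the 9 (Ehhadh, Acaa1a, Acaa1b, Abcd3 and Decr2). In that comparison 13.8% of all genes did not overlap in either direction, and 1673 of 22180 were wholly higher in double KO livers. SMRT KO and control values did not overlap for 1 of the 9, Acaa1a, against 8.16% of all genes. The median log2 fold change of the 9 genes was 0.25 in double KO against control, 0.38 in double KO against SMRT KO and -0.07 in SMRT KO against control, while the median of all genes was 0.00 in each. The comparisons share groups of arrays and are not independent of each other. In RNA of whole liver, fewer cells of a type and less RNA per cell cannot be told apart.

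**Figure D1:**
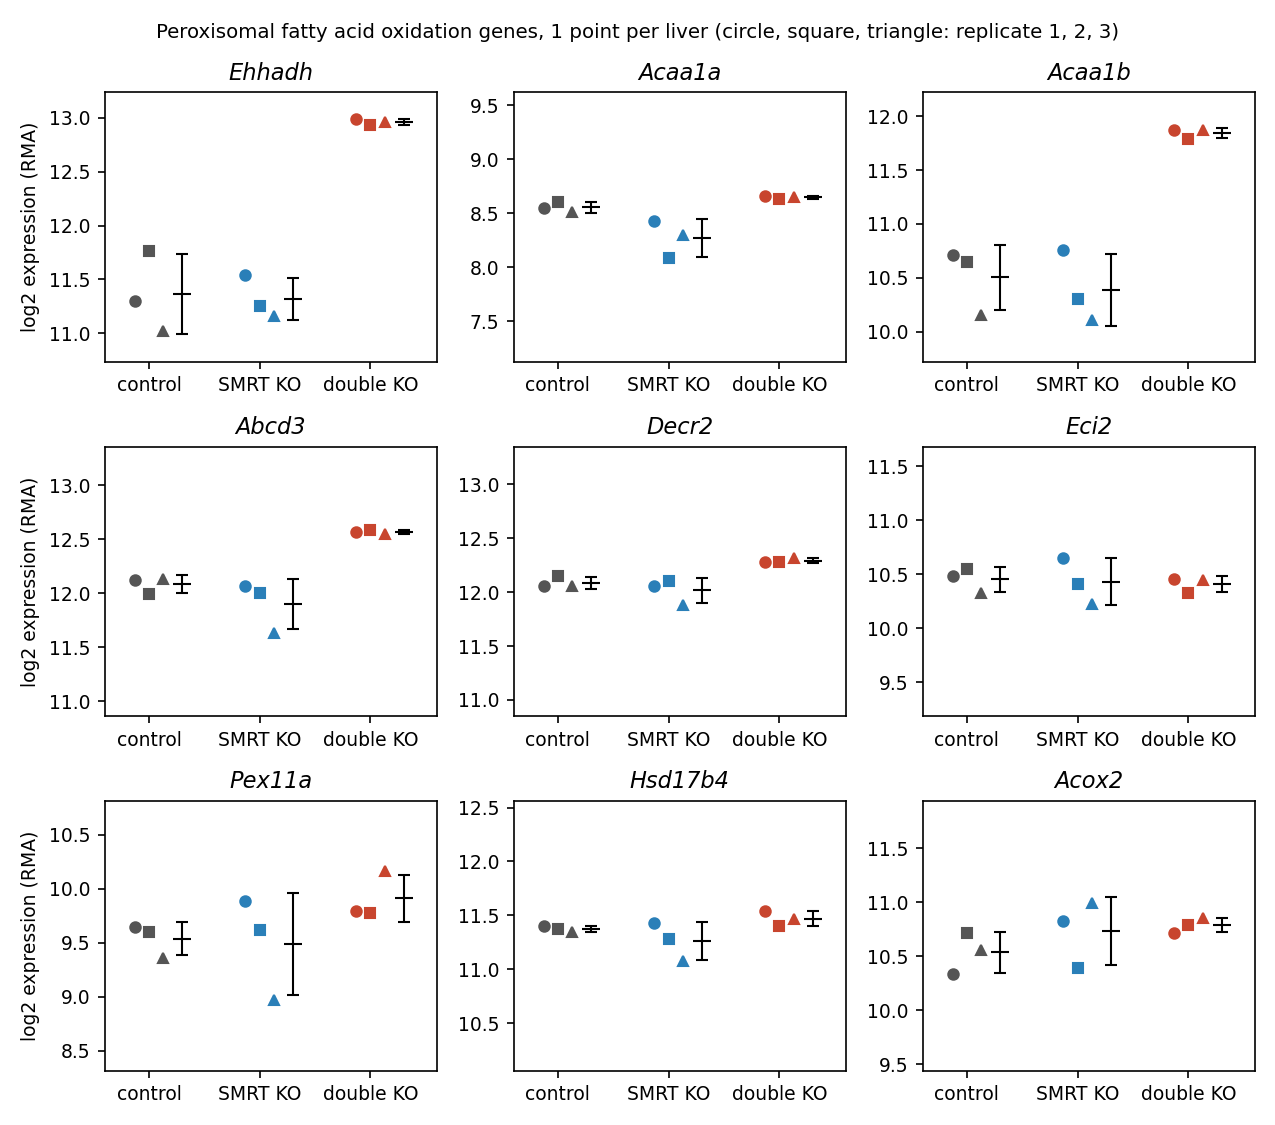
Log2 expression (RMA) of each of the 9 genes on the vertical axis, with 1 point per liver, by group; bars give the mean and SD over 3 livers, and each panel spans the same 2.5 log2 units. Double KO values of Ehhadh (12.93 to 12.99) and Acaa1b (11.79 to 11.87) sit apart from all other livers, and Eci2 values overlap in all 3 groups.

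Ehhadh encodes the L-bifunctional protein, which hydrates the enoyl-CoA and then dehydrogenates the product. Its values were 11.30, 11.76 and 11.03 in control, 11.54, 11.25 and 11.16 in SMRT KO, and 12.99, 12.93 and 12.96 in double KO livers. The double KO livers were more than 1 log2 unit above every other liver and differed little among themselves, while control and SMRT KO values overlapped. Ehhadh rose 3.02-fold in double KO against control (log2 fold change 1.59, SE 0.168, limma adjusted p = 0.00357) and 3.11-fold against SMRT KO (1.64, adjusted p = 0.00279, and 1.56 without SMRT KO replicate 3). It ranked 25th and 26th by p among 22180 genes in these comparisons. Its call held in all 16 alternative fits of both comparisons, with adjusted p up to 0.0281 and 0.0186. In SMRT KO against control its log2 fold change was -0.04, with an interval of -0.42 to 0.33.

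The second bifunctional protein of peroxisomes, encoded by Hsd17b4, catalyses the same pair of steps through the D-isomer and acts on branched chains and bile acid precursors. Its values were 11.40, 11.38 and 11.35 in control, 11.43, 11.28 and 11.08 in SMRT KO, and 11.54, 11.40 and 11.46 in double KO livers. The double KO values lay just above the controls and overlapped with SMRT KO replicate 1. The log2 fold change was 0.09 against control, with an interval of -0.11 to 0.30 (adjusted p = 0.79), and the upper end of this interval is a 1.23-fold rise. Against SMRT KO it was 0.21 (adjusted p = 0.453), and 0.12 without SMRT KO replicate 3. The log2 difference between the Ehhadh and Hsd17b4 probe sets of one liver was -0.01 ± 0.363 in control, 0.06 ± 0.0757 in SMRT KO and 1.49 ± 0.0436 in double KO livers (SD, n = 3 each). Probe sets differ in brightness, so such a difference says nothing of which gene is more abundant, and only its shift between groups is compared. The 3 double KO values of this difference were above all others. The two-sided exact permutation test gave p = 0.1 for either comparison with double KO livers, which is the smallest that 3 against 3 allows, and 0.15 after adjustment over 6 such tests. This pair of genes was chosen after values were seen, which the adjustment does not cover. The difference also reuses the Ehhadh values given above, so it is no separate evidence.

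Acaa1a and Acaa1b encode the peroxisomal thiolases, which cleave acetyl-CoA from the chain in the last step of the cycle. The genes lie on chromosome 9, with 4 other protein-coding genes between them in RefSeq (Slc22a14, Slc22a13, Oxsr1 and Myd88). Acaa1b had values of 10.71, 10.64 and 10.16 in control, 10.75, 10.30 and 10.11 in SMRT KO, and 11.87, 11.79 and 11.87 in double KO livers. All 3 double KO livers were above the other 6, by at least 1 log2 unit. It rose 2.52-fold in double KO against control (log2 fold change 1.34, SE 0.178, adjusted p = 0.0114) and 2.74-fold against SMRT KO (1.45, adjusted p = 0.0061, and 1.31 without SMRT KO replicate 3). The call against control was lost without double KO replicate 1, 2 or 3 (adjusted p = 0.052, 0.061 and 0.052), with log2 fold changes of 1.32, 1.36 and 1.32. The call against SMRT KO held in all 16 alternatives.

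Acaa1a had values of 8.55, 8.61 and 8.51 in control, 8.43, 8.09 and 8.30 in SMRT KO, and 8.66, 8.63 and 8.66 in double KO livers. The 3 groups did not overlap: SMRT KO livers were lowest and double KO livers highest, by a narrow margin over control. Its log2 fold change in double KO against control was 0.09 (interval -0.10 to 0.29, adjusted p = 0.78), in double KO against SMRT KO 0.38 (0.19 to 0.57, adjusted p = 0.0854) and in SMRT KO against control -0.28 (-0.48 to -0.09, unadjusted p = 0.00864, limma adjusted p = 0.704). None of the 3 passed in limma's test. Without SMRT KO replicate 3 the value against SMRT KO was 0.39. The difference between the Acaa1b and Acaa1a probe sets was 1.95 ± 0.267 in control, 2.12 ± 0.271 in SMRT KO and 3.19 ± 0.0326 in double KO livers (log2, SD, n = 3 each), with the 3 double KO values above all others (two-sided exact permutation p = 0.1 for either comparison, 0.15 adjusted over 6 tests). This pair too was chosen after values were seen, which the adjustment does not cover, and its difference reuses the Acaa1b values given above. The thiolases are close copies, and whether the probes of one also bind RNA of the other was not tested.

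RefSeq promoter windows, 250 bases before to 50 bases after the start site on assembly GRCm38.p6, were found for 8 of the 9 genes, 10 windows in all. The windows shown are those of the genes that rose in both comparisons, Ehhadh and Acaa1b, of the second thiolase gene Acaa1a, and of Acox2, whose window held the sole close match to a PPAR response element. Capitals mark each CCAAT box on either strand (CCAAT or ATTGG) and, in Acox2, the match to the response element. The Ehhadh window is chr16:21787785-21788084, minus strand, the Acaa1b window chr9:119157044-119157343, minus strand, the Acaa1a window chr9:119341044-119341343, plus strand, and the Acox2 window chr14:8258790-8259089, minus strand. Each is written 5′ to 3′ along its gene.
Ehhadh: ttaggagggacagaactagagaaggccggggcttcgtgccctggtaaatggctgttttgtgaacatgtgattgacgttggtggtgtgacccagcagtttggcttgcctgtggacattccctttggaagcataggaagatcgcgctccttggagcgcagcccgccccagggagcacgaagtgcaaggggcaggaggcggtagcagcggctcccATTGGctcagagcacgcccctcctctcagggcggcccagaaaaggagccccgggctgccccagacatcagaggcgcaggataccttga
Acaa1b: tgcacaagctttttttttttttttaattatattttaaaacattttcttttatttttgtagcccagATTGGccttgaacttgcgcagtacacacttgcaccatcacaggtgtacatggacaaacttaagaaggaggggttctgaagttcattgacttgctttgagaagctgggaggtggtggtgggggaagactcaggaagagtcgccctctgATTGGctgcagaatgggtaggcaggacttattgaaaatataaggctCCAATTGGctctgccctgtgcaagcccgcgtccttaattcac
Acaa1a: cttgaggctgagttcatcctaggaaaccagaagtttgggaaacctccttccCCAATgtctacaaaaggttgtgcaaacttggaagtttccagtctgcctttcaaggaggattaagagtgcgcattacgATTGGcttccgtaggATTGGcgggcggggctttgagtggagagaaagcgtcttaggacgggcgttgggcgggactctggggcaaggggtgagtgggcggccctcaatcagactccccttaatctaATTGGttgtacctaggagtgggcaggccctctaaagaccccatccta
Acox2: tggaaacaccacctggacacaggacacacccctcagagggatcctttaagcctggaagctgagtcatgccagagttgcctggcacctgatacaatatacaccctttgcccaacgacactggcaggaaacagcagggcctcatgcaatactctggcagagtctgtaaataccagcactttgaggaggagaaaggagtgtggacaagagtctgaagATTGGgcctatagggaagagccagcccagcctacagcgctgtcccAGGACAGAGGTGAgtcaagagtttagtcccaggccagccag

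The element searched was a pair of AGGTCA half-sites in the same direction with 1 base between them, on both strands, allowing up to 2 mismatches over its 12 fixed positions. It was found in 1 of the 10 windows, the Acox2 one shown, against 3.86% of 32817 promoter windows in RefSeq, and it begins 9 bases after the start site. The Ehhadh and Acaa1b windows held no such match, and neither did the Acaa1a window. A CCAAT box was present in 5 of the 10 windows and in 37.4% of all windows. Acaa1b and Acaa1a each held 4 boxes, of which 2 overlap in Acaa1b, and the Ehhadh box begins 38 bases before the start site. The 2 overlapping boxes of Acaa1b and 1 box of Acaa1a begin after the start site. These matches describe letters in the windows and no binding was measured. Sequence outside the windows was not searched, so the lack of a match holds for these windows only.

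Abcd3 encodes PMP70, an ABC transporter of the peroxisomal membrane that brings in long-chain, branched and dicarboxylic acyl-CoAs. It had values of 12.12, 11.99 and 12.14 in control, 12.06, 12.00 and 11.63 in SMRT KO, and 12.57, 12.58 and 12.55 in double KO livers. The double KO livers were the highest 3 of 9, and SMRT KO replicate 3 was lowest. Abcd3 rose 1.59-fold in double KO against SMRT KO (log2 fold change 0.67, SE 0.106, adjusted p = 0.0197), and its log2 fold change was 0.54 without SMRT KO replicate 3 (adjusted p = 0.0186). Against control it was 1.40-fold higher and did not pass (0.48, interval 0.25 to 0.72, adjusted p = 0.0898). The call against SMRT KO was lost without double KO replicate 1, 2 or 3 (adjusted p = 0.0738, 0.0939 and 0.0665) and with only the 2 compared groups in the fit (0.0761). Against control Abcd3 passed without SMRT KO replicate 3 (adjusted p = 0.0162) and with only the 2 compared groups (0.0367), and the adjusted p over all 16 alternatives was 0.0162 to 0.286. The fold change against control does not change in these 2 fits, only the estimate of the spread.

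Pex11a encodes a membrane protein that elongates peroxisomes before they divide. Its values spread widely within groups, at 9.65, 9.60 and 9.36 in control, 9.89, 9.62 and 8.97 in SMRT KO, and 9.80, 9.77 and 10.16 in double KO livers. Double KO values were above control but overlapped with SMRT KO replicate 1, and SMRT KO replicate 3 stood lowest. The log2 fold change was 0.38 against control (interval -0.10 to 0.85, adjusted p = 0.59) and 0.42 against SMRT KO (-0.05 to 0.90, adjusted p = 0.55). Without SMRT KO replicate 3 the value against SMRT KO was 0.16. An increase of up to 1.80-fold against control lies within the interval. Its residual SD of 0.313 was in the 97th percentile of all genes.

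Decr2 and Eci2 encode auxiliary enzymes, which let unsaturated chains pass through the cycle. Decr2, the peroxisomal 2,4-dienoyl-CoA reductase, had values of 12.05, 12.15 and 12.06 in control, 12.06, 12.11 and 11.88 in SMRT KO, and 12.28, 12.27 and 12.32 in double KO livers. All 3 double KO values were above the other 6, but the gap was small. Decr2 was 1.15-fold higher in double KO against control (log2 fold change 0.21, interval 0.04 to 0.37, adjusted p = 0.32) and 1.21-fold higher against SMRT KO (0.27, adjusted p = 0.147, and 0.21 without SMRT KO replicate 3), and passed in neither. Eci2, an enoyl-CoA isomerase that moves double bonds, had values of 10.48, 10.55 and 10.33 in control, 10.66, 10.41 and 10.22 in SMRT KO, and 10.46, 10.32 and 10.44 in double KO livers. The 3 groups overlapped throughout. Its log2 fold change was -0.05 against control (interval -0.29 to 0.20, adjusted p = 0.933) and -0.02 against SMRT KO (-0.27 to 0.22, and -0.13 without SMRT KO replicate 3), so the interval against control ends at a 1.15-fold rise.

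Acox2 encodes the oxidase that starts the shortening of branched chains and bile acid intermediates. It had values of 10.33, 10.72 and 10.56 in control, 10.83, 10.39 and 10.99 in SMRT KO, and 10.72, 10.79 and 10.85 in double KO livers. The double KO livers lay just above the highest control, and SMRT KO replicate 3, the lowest liver for most of the other genes, was the highest here. The log2 fold change was 0.25 in double KO against control (interval -0.09 to 0.59, adjusted p = 0.622), 0.05 in double KO against SMRT KO (-0.29 to 0.39) and 0.20 in SMRT KO against control (-0.14 to 0.54, adjusted p = 0.915). Without SMRT KO replicate 3 it was 0.18 in double KO against SMRT KO and 0.07 in SMRT KO against control.

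**Figure D2:**
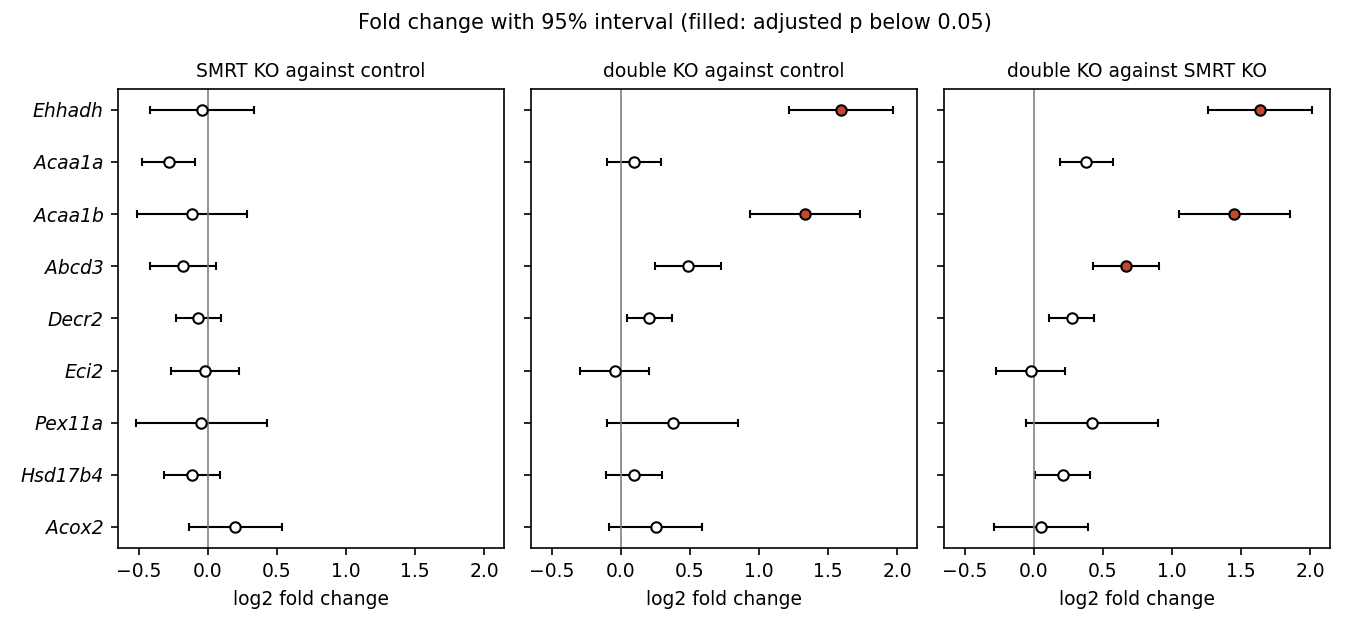
Log2 fold change of the 9 genes (horizontal axis) in each of the 3 comparisons, with the 95% interval from limma; filled points had an adjusted p below 0.05. Ehhadh and Acaa1b are filled in both comparisons with double KO livers, Abcd3 only against SMRT KO, and 0 points are filled in SMRT KO against control.

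In SMRT KO livers 8 of the 9 genes had a mean below control, Acox2 being above, while 50.4% of all genes had a fold change above 0. Without SMRT KO replicate 3, only 4 of the 9 were below control and the median log2 fold change was 0.02 in place of -0.07. The means of Ehhadh (0.03), Acaa1b (0.02), Eci2 (0.08) and Pex11a (0.22) were then above control, where all livers gave -0.04, -0.12, -0.02 and -0.05. Abcd3 was at -0.05 in place of -0.18, Hsd17b4 at -0.02 in place of -0.11, and Acaa1a at -0.30 in place of -0.28. Decr2 was at -0.003 in place of -0.07. Measured against the control means, the median difference of the 9 genes was 0.18 in SMRT KO replicate 1, -0.09 in replicate 2 and -0.26 in replicate 3, so the 3 SMRT KO livers did not share a direction. In double KO livers it was 0.20, 0.24 and 0.32, and in controls 0.03, 0.06 and -0.05. The widest interval, that of Pex11a, ran from -0.52 to 0.43, and the narrowest, that of Decr2, from -0.23 to 0.09. Without SMRT KO replicate 3 the median in double KO against SMRT KO was 0.21 in place of 0.38, and Ehhadh, Acaa1b and Abcd3 were still called.

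The double KO livers differed little among themselves in most of these genes. The SD over the 3 livers was smallest in the double KO group for 7 of the 9 genes, all but Pex11a and Hsd17b4, against 38.2% of all genes. The median SD of the 9 genes was 0.0474 in double KO, 0.115 in control and 0.217 in SMRT KO livers, while the medians over all genes were 0.0898, 0.0986 and 0.106. Ehhadh had SDs of 0.373, 0.196 and 0.0269 in control, SMRT KO and double KO livers, Acaa1b 0.301, 0.331 and 0.0474, and Abcd3 0.0818, 0.231 and 0.0172. With 3 livers a group, these SDs are imprecise, and the difference in spread was not tested. The model used 1 spread for all 3 groups.

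**Figure D3:**
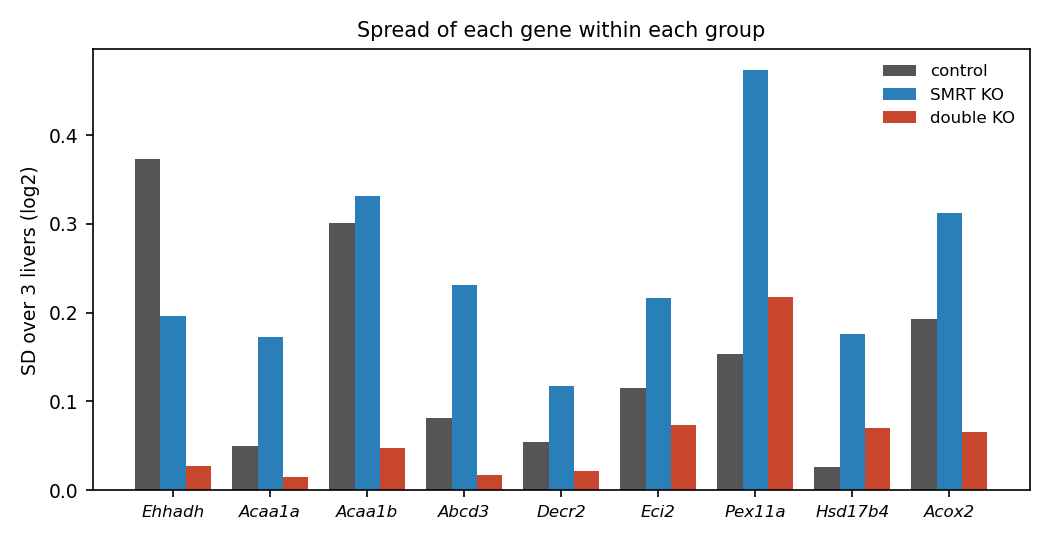
SD over the 3 livers of each group (vertical axis, log2 units) for the 9 genes. The double KO bar is the lowest of the 3 for 7 genes, and the SMRT KO bar of Pex11a is the highest shown, at 0.473.

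Other genes of peroxisomal fatty acid oxidation were mostly not called. Of 22 listed, 18 were measured, and 1 rose, 0 fell and 17 did not pass in double KO against control, with a median log2 fold change of 0.02. The gene that rose was Crat, the carnitine acetyltransferase that lets acetyl groups leave the organelle (2.50-fold, log2 fold change 1.32, adjusted p = 0.0486). Its call was lost in 11 of 16 alternatives (adjusted p 0.00325 to 0.18), including each fit without 1 SMRT KO or double KO liver. Its log2 fold change was 0.80 to 1.66 over the 16 alternatives, and 1.15 to 1.66 when 1 array was left out. In double KO against SMRT KO 1 rose, Mlycd, which breaks down malonyl-CoA (1.44-fold, adjusted p = 0.0133), with a list median of 0.05. That call was lost without SMRT KO replicate 1 or double KO replicate 2 (adjusted p up to 0.0525). In double KO against control 7 of the 18 had an unadjusted p under 0.05 (5 higher, 2 lower), where 10.8% of all genes had one. Against SMRT KO livers 4 of the 18 had one, all higher in double KO, where 10.5% of all genes did in either direction. The groups did not overlap for 7 and 6 of the 18 in these comparisons, against 15.0% and 13.8% of all genes. In SMRT KO against control 0 of the 18 were called, and 2 had an unadjusted p under 0.05, where 1331 of 22180 genes had one. The smallest p in that comparison belonged to Pecr, a peroxisomal enoyl-CoA reductase (log2 fold change -0.26, adjusted p = 0.723).

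Genes that build the organelle were not called by limma in any comparison, and 0, 0 and 3 of those measured had an unadjusted p under 0.05 in SMRT KO against control, in double KO against control and in double KO against SMRT KO. In the same order, 1331 of 22180 genes, 10.8% and 10.5% of all genes had one. Of 20 listed peroxins and peroxisomal membrane proteins 17 were measured, with medians of 0.03 in double KO against control, 0.08 against SMRT KO and -0.08 in SMRT KO against control. Pex16, needed to form the membrane, had the smallest p in both double KO comparisons (log2 fold change 0.19, adjusted p = 0.494, and 0.34, adjusted p = 0.153), and Pex14, a docking protein for import, in SMRT KO against control (-0.15, adjusted p = 0.895). Their fold changes in double KO against control ran from -0.14 to 0.20. Of 20 measured other peroxisomal enzymes of 22 listed, 0 rose and 1 fell in double KO livers. This was Hao1, the glycolate oxidase of liver peroxisomes, which fell by 0.94 on the log2 scale against control (adjusted p = 0.0475) and against SMRT KO (adjusted p = 0.0388). Both calls were lost in 10 of 16 alternatives (adjusted p up to 0.167 and 0.149), among them each fit without 1 double KO or 1 SMRT KO liver. Of these 20, 3 had an unadjusted p under 0.05 in double KO against control (1 higher, 2 lower) and 5 against SMRT KO (2 higher, 3 lower). In SMRT KO against control 0 of these 20 were called by limma and 2 had an unadjusted p under 0.05. The smallest p was that of Hao2, a hydroxyacid oxidase (log2 fold change 0.92, adjusted p = 0.326).

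Mitochondrial fatty acid oxidation enzymes, which carry out the same kind of cycle on shorter chains, were not called in any of the 3 comparisons. All 20 listed were measured, with a median of 0.02 in double KO against control and 0.11 against SMRT KO. Acad10, an acyl-CoA dehydrogenase family member, had the smallest p (log2 fold change 0.38, adjusted p = 0.273, and 0.57, adjusted p = 0.0746), and Cpt1a, which commits chains to mitochondria, in SMRT KO against control (-0.19, adjusted p = 0.766). Log2 fold changes of these enzymes in double KO against control ran from -0.13 to 0.38. In that comparison Ehhadh (1.59), Acaa1b (1.34) and Abcd3 (0.48, not called) lay above this range. Pex11a (0.375), Acox2 (0.25), Decr2 (0.21), Hsd17b4 (0.09), Acaa1a (0.09) and Eci2 (-0.05) lay within it. An unadjusted p under 0.05 was found for 2 of the 20 against control, 6 against SMRT KO and 2 in SMRT KO against control, both lower. The shares of all genes were 10.8%, 10.5% and, for lower genes, 3.34%. The differences between lists were not tested.

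Of 14 measured other PPAR alpha targets of 18 listed, 5 rose and 0 fell in double KO against control, with a median of 0.57. They were Cd36, a fatty acid transporter (log2 fold change 1.31, adjusted p = 0.00309), the acyl-CoA thioesterases Acot1 (2.00, adjusted p = 0.00357) and Acot2 (1.44, adjusted p = 0.0054), the droplet coat gene Plin2 (0.64, adjusted p = 0.016) and Pdk4, which restrains glucose oxidation (2.36, adjusted p = 0.0281). Against SMRT KO 4 rose, all of these but Cd36. Of all genes 0.843% were called in double KO against control and 1.19% against SMRT KO. Log2 fold changes of the 14 in double KO against control ran from -0.35 to 2.36, and 3 of the 14 were below 0. Calls of Pdk4 and Plin2 against control were lost in 8 and 4 of 16 alternatives (adjusted p up to 0.12 and 0.0694), and those of Pdk4 and Acot2 against SMRT KO in 5 and 4 (up to 0.076 and 0.0579). In SMRT KO against control 0 of the 14 were called by limma and 2 had an unadjusted p under 0.05, where 1331 of 22180 genes had one. The smallest p was that of Cd36 (log2 fold change 0.65, adjusted p = 0.334). Of the 14, 10 had an unadjusted p under 0.05 against control (10.8% of all genes did), of which 9 were higher and 1, Creb3l3, a liver transcription factor of the fasting response, was lower (-0.35, adjusted p = 0.237).

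**Figure D4:**
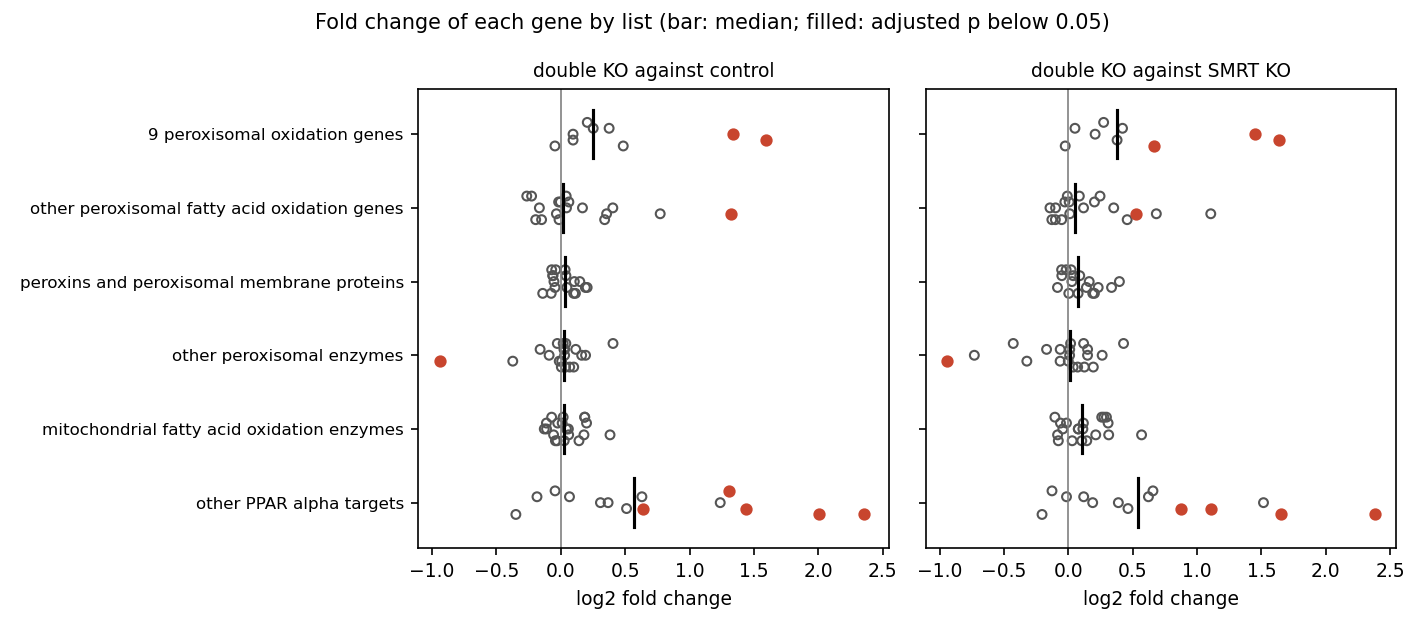
Log2 fold change (horizontal axis) of each measured gene of 6 lists in the 2 comparisons with double KO livers; the black bar is the list's median and filled points had an adjusted p below 0.05. The 9 peroxisomal oxidation genes have medians of 0.25 and 0.38, and the peroxins lie between -0.14 and 0.20 against control.

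The receptor's own gene was not called. Ppara, which encodes PPAR alpha, had means of 10.52 ± 0.0859 in control, 10.30 ± 0.0898 in SMRT KO and 10.52 ± 0.132 in double KO livers (log2, SD, n = 3 each). The log2 fold change of Ppara was 0.0022 in double KO against control (SE 0.0861, adjusted p = 0.997), 0.22 against SMRT KO (interval 0.02 to 0.41, unadjusted p = 0.0312, limma adjusted p = 0.403) and -0.22 in SMRT KO against control (interval -0.41 to -0.02, unadjusted p = 0.0325, limma adjusted p = 0.826). Its 3 SMRT KO values lay below all other livers. Of 10 receptor and coactivator genes, 1 was called in double KO against control, Pparg, which encodes PPAR gamma (log2 fold change 0.52, adjusted p = 0.0346, lost in 10 of 16 alternatives, up to 0.158). In SMRT KO against control Pparg was higher by 0.56 and did not pass (adjusted p = 0.223). Ppargc1a, a coactivator of oxidative genes, had the smallest p in double KO against SMRT KO (-1.07, adjusted p = 0.0889). It was also lower in double KO against control and did not pass (-0.94, adjusted p = 0.159). Of the 10, 3 had an unadjusted p under 0.05 in double KO against control (2 higher, 1 lower) and 4 against SMRT KO (3 higher, 1 lower). In SMRT KO against control 3 had one (1 higher, 2 lower). The shares of all genes were 10.8%, 10.5% and 1331 of 22180.

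The genes whose pattern over the 9 arrays was most like the mean of the 9 standardised peroxisomal genes were Cyp4a31, of the fatty acid omega-hydroxylase family (Pearson r = 0.992), Dnaja3, a mitochondrial co-chaperone (0.973), Slc25a30, a mitochondrial carrier (0.957), Hsdl2, a hydroxysteroid dehydrogenase-like protein (0.952), and Coasy, which makes coenzyme A (0.952). The arrays share the 3 groups, so these values describe likeness across groups as well as among livers, and they were the highest of 22171 genes. Cyp4a31 ordered the 9 arrays as the mean did (Spearman rho 1). It had means of 10.12 in control, 9.84 in SMRT KO and 11.36 in double KO livers and did not pass in either comparison with the double KO livers (adjusted p = 0.221 and 0.108). It has near-identical neighbours in its family, and its probes may bind their RNA, which was not tested. Of the 5, Coasy alone was called, in double KO against SMRT KO (0.34, adjusted p = 0.0344). Among the 9 genes themselves, the correlation of one with the mean of the other 8 over the 9 arrays was 0.922 for Acaa1b, 0.886 for Decr2, 0.875 for Ehhadh and 0.866 for Abcd3, but 0.280 for Eci2 and 0.088 for Acox2. With the group means removed, Ehhadh correlated at 0.766 with Acaa1b and at 0.769 with Eci2 but at 0.058 with Abcd3, again as a description of 9 livers.

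Markers of liver cell types were compared in the same arrays. Of 10 hepatocyte markers 3 had an unadjusted p under 0.05 in double KO against control, all lower. In either direction 10.8% of all genes had one. In the mean 8 of the 10 were lower in double KO than in control livers, with a median of -0.11, and 1 fell, Serpina1a (-0.47, adjusted p = 0.0251, lost in 7 of 16 alternatives, up to 0.116). The log2 of their summed level was 16.32 to 16.36 in control, 16.31 to 16.37 in SMRT KO and 16.20 to 16.27 in double KO livers, where the summed level of the 9 peroxisomal genes was 14.17 to 14.34, 14.02 to 14.34 and 14.85 to 14.89. All 12 macrophage markers were higher in the mean in SMRT KO than in control (median 0.23) and lower in double KO than in SMRT KO livers (median -0.25), with 0 called by limma. In each of these comparisons 5 of 12 had an unadjusted p under 0.05, where 1331 of 22180 genes and 10.5% of all genes had one. The log2 of the sum of the macrophage markers was 12.33 to 12.52, 12.53 to 12.75 and 12.25 to 12.52 in the 3 groups. Of 9 stellate cell markers 1 fell in double KO livers, Lrat, which esterifies retinol (-1.80 against control, adjusted p = 0.000397), at a list median of -0.19. Against control 3 of the 9 had an unadjusted p under 0.05, all lower, where 10.8% of all genes had one in either direction. The log2 of the summed level of the stellate cell markers was 11.92 to 12.21 in control, 11.89 to 12.27 in SMRT KO and 11.57 to 11.92 in double KO livers. Endothelial markers (8 measured, median 0.08 in double KO against control) had 0 called by limma (1 with an unadjusted p under 0.05), and 4 of 5 cholangiocyte, 6 of 7 lymphocyte and 4 of 5 adipocyte markers had means below the receptor level of 6.22. The part of these markers in the results above was not tested.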

How the data were processed

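Liver RNA of 9 mice (200 ng each) was labelled with biotin and hybridised to 1 array per mouse. The deposited table holds log2 values of 41345 probe sets, made by the authors with RMA, per the submitters' processing notes (version not given in the sources used here). RMA subtracts background, quantile-normalizes the arrays together and summarises probes, so a shift common to most genes is removed. Each array column matched 1 sample by name and 0 were left over. Arrays carry no read depth, and their number limits the precision. Groups came from the sample titles.

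Exactly 1 gene symbol was given by the platform annotation for 23521 probe sets. Only these were used; where a gene had several, the brightest over the 9 arrays stood for it, which left 22180 genes. A linear model with empirical Bayes moderation (limma 3.58.1, R 4.3.3, two-sided) was fitted over all 9 arrays (6 residual and 3.36 prior degrees of freedom) for 3 contrasts, with Benjamini-Hochberg adjustment over all genes and a threshold of 0.05. The steps were also run on simulated data that gave each gene 1 spread in all groups. The real SDs differed between groups, so that run cannot show how the test behaves with unequal spread. Alternatives were the 2 compared groups alone, a replicate block, cyclic loess, median centring, the lowest 25% of genes left out, the mean of a gene's probe sets, a trended robust variance, and each array left out.

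The genes and lists were chosen with earlier results of these data known. Named genes were the 9, the called genes of each list (at most 5, by p) or its gene of smallest p, Ppara and the 5 most like the mean pattern; 1 further gene of the rule is not reported here. The 2 within-liver differences, and genes named beside these, were chosen after values were seen. Promoters came from RefSeq (GRCm38.p6).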

Additional observations from a re-analysis of the deposited data

How the results depend on the processing

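Among 16 alternatives of each comparison, 0 of the 9 genes were called in SMRT KO against control in each of them. In double KO against control the count was 2, and 1 to 3 when 1 array was left out; it was 1 without double KO replicate 1, 2 or 3, where Acaa1b was lost, and 3 when the fit held the 2 compared groups alone or left out SMRT KO replicate 3, where Abcd3 was gained. In double KO against SMRT KO it was 3, 2 to 3 when 1 array was left out, and 2 with only the 2 compared groups, where Abcd3 was lost. Of 144 single values in each comparison, 144, 139 and 140 kept their side of the threshold, in the order of the comparisons just given; 0, 3 and 4 calls were lost, and 0, 2 and 0 gained. The number of all genes called ran from 0 to 23 (1 with all arrays), 61 to 236 (187) and 101 to 326 (263), so the background share moves as well. Median centring shifted the median of all genes by up to 0.0259 in size and cyclic loess by less. With the replicate block 0, 2 and 3 of the 9 genes were called. The replicate numbers showed no clear pairing of the mice: same-numbered arrays of different groups had correlations of -0.0845 to 0.117 in their deviations from the group means, 1 of 9 over 0.1, and 4 of 9 arrays correlated best with their own number. With 3 arrays a group, this check cannot show that the mice were unpaired. The mean of probe sets cannot change the 9 genes' values, since each has 1. With 3 arrays a group, the interval of Pex11a in double KO against control includes rises of up to 1.80-fold. That value is not a limit of detection, and larger changes also went uncalled. Cyp4a31, 2.36-fold higher in that comparison, did not pass (limma adjusted p = 0.221).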
